A study of Homo sapiens with 6 samples.

Results

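The genes described here are 9 transcription factor and steroid receptor genes of ovarian granulosa cells: FOXL2, NR5A1, NR5A2, GATA4, GATA6, WT1, PGR, ESR2 and NR3C1. They were chosen by name, low ones included, with earlier results of these data known. They are 9 of the 20036 genes in the deposited table. RNA was sequenced from KGN, an established human line from an ovarian granulosa cell tumour, labelled wild type. The series asked how its transcriptome differs after knockdown of OGT, which encodes the enzyme that attaches O-GlcNAc, a single sugar, to nuclear and cytosolic proteins. Cells received siOGT1 or siOGT2, each an siRNA against human OGT mRNA, or siNC, the control siRNA. All were transfected with Lipofectamine 3000 and collected at 48 h, with 2 libraries per group and 6 in all. The labels do not say that libraries of a group came from separate cultures, so p-values measure the spread between these libraries, which may be technical.

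Granulosa cells surround the oocyte, make estradiol and, after ovulation, progesterone. The forkhead factor FOXL2 keeps them from taking on Sertoli cell features, and KGN cells are known to carry the recurrent FOXL2 missense mutation of adult granulosa cell tumours. NR5A1 (SF-1) and NR5A2 (LRH-1) are nuclear receptors that bind the same DNA motif and switch on genes of steroid synthesis. GATA4 and GATA6 are zinc finger partners of these receptors, and WT1 is a zinc finger factor of the early gonad. PGR, ESR2 and NR3C1 encode the receptors for progesterone, estrogen (beta form) and glucocorticoids, which bind DNA when their hormone is present.

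Levels are deposited FPKM, that is, reads scaled to gene length and to the mapped reads of the library. Whole reads could be recovered from the FPKM values, and totals ran from 16756649 to 21416489 mapped reads per library. OGT stood at 13.8 and 12.9 FPKM with siOGT1, at 14.3 and 14.7 FPKM with siOGT2 and at 22.4 and 23.4 FPKM with siNC, which left 58.3% and 63.2% of the siNC mean. On the first principal component (60.5% of the variance) the libraries lay at 0.22 and 1.52 for siOGT1, at 9.88 and 11.43 for siOGT2 and at -11.88 and -11.17 for siNC. Of 13 granulosa markers, 7 exceeded 1 FPKM in at least 1 library, FOXL2, NR5A1 and GATA4 of the genes described here among them. AMH, FST and INHBA did so, while the gonadotropin receptor gene FSHR was at 0 in all 6 libraries. The aromatase gene CYP19A1 had at most 1 read per library and AMHR2 at most 2, so these defining markers were absent or nearly so.

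The 9 genes spanned a wide range of levels. In siNC cells NR3C1 led with a mean of 25.3 FPKM, above 89.6% of the genes listed above 0, and NR5A1 followed at 18.3 FPKM. FOXL2 at 5.34 FPKM, GATA6 at 3.75 FPKM, GATA4 at 2.40 FPKM and PGR at 2.39 FPKM came next. The last 3, NR5A2 at 0.204 FPKM, WT1 at 0.189 FPKM and ESR2 at 0.0769 FPKM, lay below the mean of 1 FPKM required for testing. The authors' gene lengths, worked out from the FPKM steps, were 8133 bases for WT1 and 11938 for ESR2, where the exons of the annotation used here cover 4113 and 9337 bases, so the place of these 2 genes depends on the annotation. Neighbours in this order overlapped between their libraries for GATA4 with PGR and for NR5A2 with WT1, both in siNC cells. With either OGT siRNA PGR lay apart from GATA4. In siOGT1 cells ESR2 and WT1 changed places, with both ESR2 libraries above both WT1 libraries (means of 0.125 and 0.0960 FPKM).

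**Figure D1:**
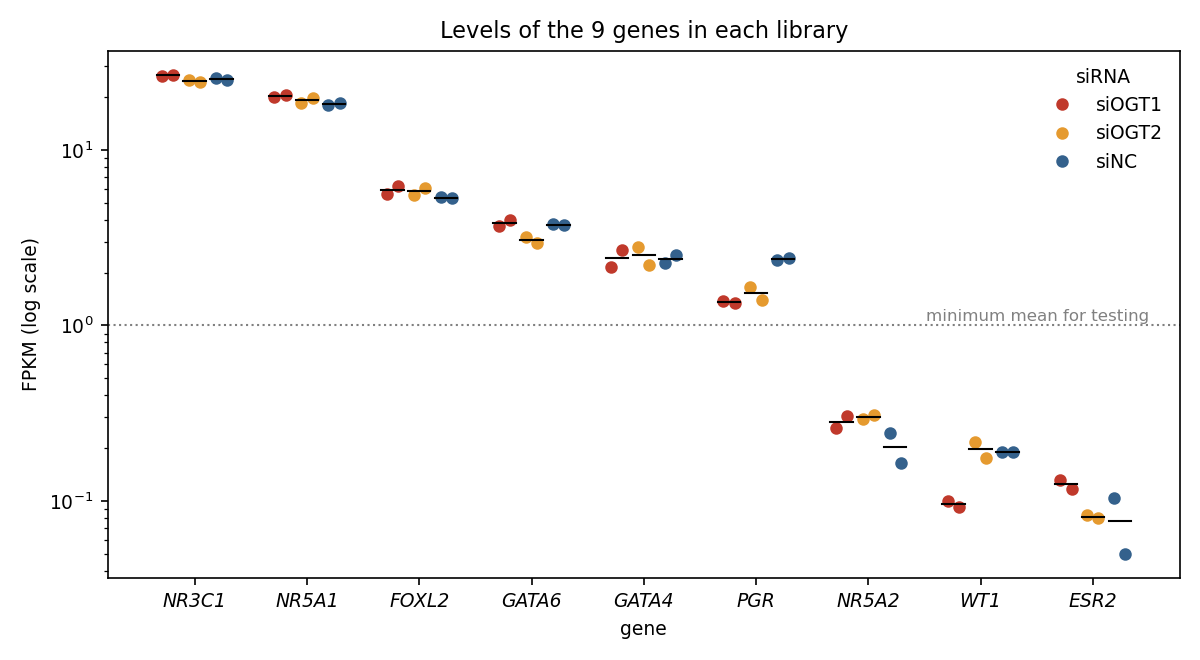
FPKM (log scale) of the 9 genes in each of the 6 libraries, ordered by siNC level, with bars at group means (n = 2) and a dotted line at the 1 FPKM mean needed for testing. PGR stands lower with both OGT siRNAs, at 1.35 to 1.65 FPKM against 2.35 and 2.42 FPKM with siNC, and NR5A2, WT1 and ESR2 lie below 0.4 FPKM throughout.

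Of the 9 genes, 6 could be tested, with limma on log2(FPKM + 1) and Benjamini-Hochberg adjustment over all 10547 genes at a mean of at least 1 FPKM. Unless voom is named, every log2 fold change given here is of FPKM + 1. It understates the change in the FPKM printed beside it, most so for genes at a few FPKM or less. With siOGT1 against siNC, 2 of the 6 passed an adjusted p of 0.05, NR5A1 higher and PGR lower. In that comparison 17.6% of all tested genes passed, 9.51% higher and 8.10% lower. With siOGT2 against siNC, 2 of the 6 passed, PGR and GATA6, both lower, where 35.5% of all genes passed, 22.1% higher and 13.4% lower. Between siOGT1 and siOGT2 only GATA6 of the 6 passed, higher in siOGT1 cells, where 16.6% of all genes passed, 8.35% higher and 8.24% lower. With 6 genes tested, these counts do not set the members apart from that background. Both OGT siRNAs were compared with the same siNC libraries. The median log2 fold change of the 6 genes was 0.05 with siOGT1, 0.01 with siOGT2 and 0.05 between the siRNAs, beside 0.03, 0.04 and -0.01 for all genes tested. Over all genes the number passing with siOGT1, 1857, was 943 without siNC replicate 1, 980 without siNC replicate 2 and 1200 without siOGT1 replicate 2. With siOGT2 it was 3740, and 2321, 2218 and 2219 without siNC replicate 1, siNC replicate 2 and siOGT2 replicate 2. Between the siRNAs it was 1750, and 1056 and 813 without siOGT2 replicate 1 and siOGT2 replicate 2. Under scaling by a trimmed mean of log ratios the higher share of the passing genes was 35.0% with siOGT1 and 42.2% with siOGT2, beside 54.0% and 62.3% here.

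**Figure D2:**
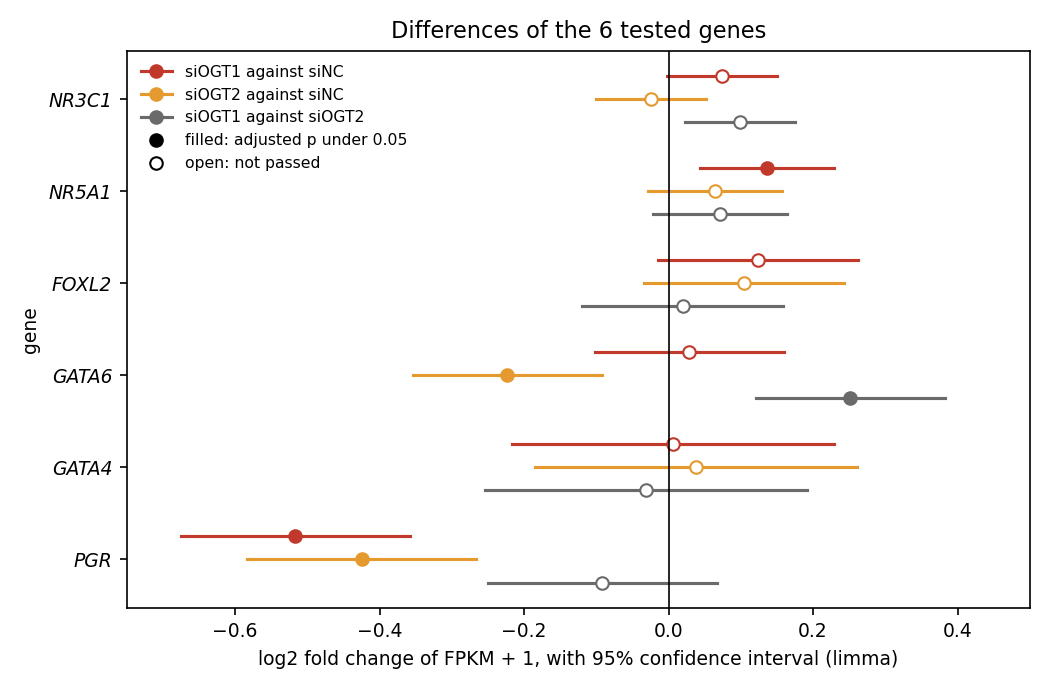
Log2 fold change of FPKM + 1 with its 95% confidence interval (limma) for the 6 tested genes, siOGT1 against siNC, siOGT2 against siNC and siOGT1 against siOGT2; filled points passed an adjusted p of 0.05. PGR lies at -0.52 and -0.42 against siNC, and GATA6 at -0.22 with siOGT2 but at 0.03 with siOGT1.

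PGR mRNA fell with both siRNAs, the largest difference among the 6 tested genes. PGR (ENSG00000082175, GRCh38 chromosome 11, 101029624 to 101130524, minus strand) had 1.39 and 1.35 FPKM in siOGT1 cells and 1.65 and 1.40 FPKM in siOGT2 cells, against 2.35 and 2.42 FPKM in siNC cells. The reads behind these values were 375 and 425 with siOGT1, 440 and 345 with siOGT2 and 697 and 716 with siNC. Every library with an OGT siRNA was below both siNC libraries. The mean was 1.37 ± 0.0253 FPKM with siOGT1 and 1.53 ± 0.178 FPKM with siOGT2, against 2.39 ± 0.0487 FPKM with siNC (SD, n = 2 each), which is 57.3% and 63.9% of siNC. The limma log2 fold change was -0.52 with siOGT1 (SE 0.0704, 95% interval -0.67 to -0.36, adjusted p = 0.00105) and -0.42 with siOGT2 (95% interval -0.58 to -0.27, adjusted p = 0.00185). Adding 1 to the FPKM understates a change at this level, and limma voom on the recovered reads gave -0.80 and -0.65. Both calls held under all 16 alternatives in which PGR was tested, leave-outs included. siOGT1 and siOGT2 cells differed by -0.09 (95% interval -0.25 to 0.07, adjusted p = 0.423). Some PGR exons overlap the opposite-strand gene PGR-AS1, and whether the counting used strand is not given in those notes and labels. In bulk RNA, fewer cells that express PGR and less PGR RNA per cell cannot be told apart.

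Markers of other cell types also differed between the groups, and their part in the PGR result was not tested. The 4 Sertoli cell markers, of which SOX9 alone exceeded 1 FPKM, summed to 4.19 to 4.57 FPKM in siOGT1 cells, 5.71 to 5.77 in siOGT2 cells and 7.30 to 7.76 in siNC cells. The 7 stromal markers summed to 463 to 499, 478 to 482 and 434 to 454 FPKM in the same order of groups. Collagens made up most of that sum, with means of 264 (COL1A1), 119 (COL1A2) and 46.9 FPKM (COL3A1) in siNC cells. With siOGT1 these collagens and PDGFRA averaged above siNC, while LUM (7.13 against 8.61 FPKM), PDGFRB and DCN averaged below it. The 6 epithelial markers, mostly KRT7 (mean of 24.2 FPKM in siNC cells), summed to 31.7 to 33.9, 34.6 to 35.3 and 29.9 to 31.5 FPKM. The 4 endothelial markers, none above 1 FPKM in any library, summed to 0.782 to 0.894 FPKM with siOGT1, 1.01 to 1.08 FPKM with siOGT2 and 1.16 to 1.33 FPKM with siNC, lower with both OGT siRNAs as PGR was. The 5 leukocyte markers, also none above 1 FPKM, summed to 0.0998 to 0.118 FPKM, 0.161 to 0.274 FPKM and 0.188 to 0.452 FPKM in that order. The 7 luteal and theca markers summed to 11.2 to 12.1 FPKM with siOGT1, 10.9 with siOGT2 and 10.9 to 11.1 with siNC, with INSL3 at 0 in all. The 13 granulosa markers include FOXL2, NR5A1, NR5A2 and GATA4, so their sum partly restates the values of these genes. They summed to 62.0 to 65.4 FPKM in siOGT1 cells and 60.5 to 62.9 FPKM in siOGT2 cells, against 58.3 to 59.6 FPKM in siNC cells.

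Other genes followed a pattern like that of PGR. Over the 6 libraries the tested genes with the highest Pearson correlation to PGR were the homeobox gene DLX2 (r = 0.9982), the folliculin partner gene FNIP2 (r = 0.9943) and the lipid kinase gene PI4K2B (r = 0.9941). DLX2 averaged 0.804 FPKM with siOGT1, 0.970 FPKM with siOGT2 and 1.82 FPKM with siNC. In all, 65 genes had r over 0.95 with PGR, and with 3 groups of 2 libraries such values describe mainly the order of the groups.

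PGR is itself a textbook target of estrogen receptors, whose part in the PGR result was not tested. The receptor gene ESR1 averaged 0.814 FPKM with siNC and, like ESR2, was below the minimum for testing. Counts for the target list are a description, since no list test was made. Of 11 tested among 14 estrogen receptor targets, PGR included, 2 rose and 2 fell with each siRNA. The falls were PGR itself and CCND1 in both comparisons. Medians were 0.02 and 0.06, beside 0.03 and 0.04 for all genes, of which 17.6% passed with siOGT1 and 35.5% with siOGT2. CCND1, a cyclin that drives entry into S phase, fell too, averaging 59.4 FPKM with siOGT1, 61.9 FPKM with siOGT2 and 77.5 FPKM with siNC (log2 fold changes -0.38 and -0.32, adjusted p = 7.78e-05 and 0.00013). IGFBP4, a binding protein of insulin-like growth factors, rose to 65.6 FPKM with siOGT1 and 67.9 FPKM with siOGT2, against 55.5 FPKM with siNC (log2 fold changes 0.24 and 0.29, adjusted p = 0.000954 and 0.000205). Under the trimmed mean scaling 1 target rose and 2 fell with siOGT1.

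Of 12 tested among 17 genes known downstream of the progesterone receptor, 1 rose and 2 fell with siOGT1, and 4 fell with siOGT2, with medians of -0.04 and -0.03. Among all tested genes 17.6% passed with siOGT1 and 35.5% with siOGT2, and no list test was made. IL6, a cytokine gene, averaged 3.35 FPKM with siOGT1, 2.50 FPKM with siOGT2 and 4.05 FPKM with siNC. Its log2 fold change of FPKM + 1 was -0.21 with siOGT1 (adjusted p = 0.0268) and -0.53 with siOGT2 (adjusted p = 0.000132). ADAMTS1, the protease of ovulation that needs PGR in mice, fell with siOGT2 to 76.8 FPKM, against 87.8 FPKM with siNC (log2 fold change -0.19, adjusted p = 0.00134). With siOGT1 it was at 83.0 FPKM and missed the threshold (-0.08, adjusted p = 0.0976). The count of 3 with siOGT1 was 1 without siNC replicate 1 or siOGT1 replicate 1, and 0 without siNC replicate 2 or siOGT1 replicate 2. IL6 then missed the threshold in each of the 4 fits, with adjusted p between 0.0729 and 0.147. The count of 4 with siOGT2 was 2 without siNC replicate 1 or siOGT2 replicate 2. With the trimmed mean scaling 1 rose and 4 fell with siOGT1.

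GATA6 fell with siOGT2, and its close relative GATA4 passed in no comparison. GATA6 (ENSG00000141448, chromosome 18, 22169443 to 22202528, plus strand) had 3.70 and 3.98 FPKM in siOGT1 cells, 3.18 and 2.95 FPKM in siOGT2 cells and 3.76 and 3.73 FPKM in siNC cells. Both siOGT2 libraries were below the other 4, and the siNC values lay within the siOGT1 range. GATA6 fell with siOGT2 to 81.9% of siNC (log2 fold change -0.22, SE 0.0582, 95% interval -0.35 to -0.09, adjusted p = 0.0164). With siOGT1 it stood at 102.6% (0.03, 95% interval -0.10 to 0.16, adjusted p = 0.779). The difference between siOGT1 and siOGT2 cells passed as well (0.25, 95% interval 0.12 to 0.38, adjusted p = 0.0177).

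The GATA6 calls rest on few reads, 188 to 324 per library, and several leave-outs ended them. Against siNC, siOGT2 missed the threshold without siNC replicate 1 (adjusted p = 0.0741), siNC replicate 2 (0.0662) and siOGT2 replicate 2 (0.0984), and with no filter on low values (0.0538). Between the siRNAs the call ended without siOGT1 replicate 2 (adjusted p = 0.104), siOGT2 replicate 2 (0.114) and the filter (0.0699). GATA6 shares exon positions with GATA6-AS1 and AC091588.3 on the opposite strand. DDX39B, MAP4K5 and SOAT1 were the genes most like GATA6 over the 6 libraries (r = 0.9977, 0.9929 and 0.9927). SOAT1, which esterifies cholesterol, averaged 59.8 FPKM with siOGT1, 54.0 FPKM with siOGT2 and 59.8 FPKM with siNC.

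GATA4 (ENSG00000136574, chromosome 8, 11676959 to 11760002, plus strand) had 2.16 and 2.69 FPKM with siOGT1, 2.81 and 2.20 FPKM with siOGT2 and 2.28 and 2.53 FPKM with siNC. All 3 groups overlapped. Its log2 fold change was 0.01 with siOGT1 (95% interval -0.22 to 0.23) and 0.04 with siOGT2 (95% interval -0.19 to 0.26). Changes of either direction within these intervals remain compatible with the data. The siOGT1 value turned negative without siNC replicate 1 or siOGT1 replicate 2, and the siOGT2 value without siNC replicate 1 or siOGT2 replicate 1, with ranges of -0.10 to 0.12 and -0.09 to 0.16 over the alternatives. In FPKM, GATA6 was 1.71 and 1.48 times GATA4 in siOGT1 libraries, 1.13 and 1.34 times in siOGT2 libraries and 1.65 and 1.47 times in siNC libraries. The ratio was lowest in the siOGT2 libraries.

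The GATA group, with GATA4 and GATA6 counted in it, moved downward where it passed against siNC. Of 6 tested among 9 GATA and cofactor genes, 2 fell with siOGT1 (TRPS1 and ZFPM2) and 3 fell with siOGT2 (GATA3, GATA6 and ZFPM2), with no rises. The medians, GATA4 and GATA6 included, were -0.04 and -0.17, beside 0.03 and 0.04 for all genes. Of all tested genes, 17.6% passed with siOGT1 and 35.5% with siOGT2. ZFPM2, or FOG2, the cofactor that binds GATA4 in the gonad, averaged 1.52 FPKM with siOGT1, 1.31 FPKM with siOGT2 and 1.96 FPKM with siNC. Its log2 fold change was -0.36 with siOGT2 (adjusted p = 0.00389) and -0.23 with siOGT1 (adjusted p = 0.0462). The siOGT1 call ended when any 1 of the 6 libraries was left out, so that the count with siOGT1 was then 1, with adjusted p for ZFPM2 between 0.0503 and 0.188. TRPS1, an atypical GATA factor that represses transcription, fell with siOGT1 to 3.36 FPKM, against 4.49 FPKM with siNC (-0.33, adjusted p = 0.00352). It stood at 4.55 FPKM with siOGT2 and differed between the siRNAs (-0.35, adjusted p = 0.00294). GATA3 fell with siOGT2 to 3.21 FPKM, against 4.31 FPKM with siNC (-0.33, adjusted p = 0.00171).

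NR5A1 lay far above its relative NR5A2, which had only 25 to 49 reads per library and fell below the minimum for testing. NR5A1 (ENSG00000136931, chromosome 9, 124481236 to 124507430, minus strand) had 19.97 and 20.5 FPKM in siOGT1 cells, 18.6 and 19.9 FPKM in siOGT2 cells and 18.15 and 18.5 FPKM in siNC cells. Both siOGT1 libraries were above the other 4, and all siOGT2 values were above both siNC values by a small margin. It rose with siOGT1 to 110% of siNC (log2 fold change 0.14, SE 0.0412, 95% interval 0.04 to 0.23, adjusted p = 0.0494). With siOGT2 the log2 fold change was 0.06 (95% interval -0.03 to 0.16, adjusted p = 0.249), and the siRNAs did not pass against each other (0.07, adjusted p = 0.279).

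The NR5A1 call lay at the threshold and held in 9 of 17 alternatives. It ended without siNC replicate 1 (adjusted p = 0.205), siNC replicate 2 (0.129), siOGT1 replicate 1 (0.0854) and siOGT1 replicate 2 (0.189). It also ended under quantile normalization (0.0603), the trimmed mean scaling (0.120), no intensity trend (0.0962) and no filter on low values (0.105). SCARF2, AIFM1 and WBP1L had the patterns most like NR5A1 (r = 0.9952, 0.9915 and 0.9889). AIFM1, a mitochondrial oxidoreductase gene, averaged 6.64 FPKM with siOGT1, 6.23 FPKM with siOGT2 and 5.76 FPKM with siNC.

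FOXL2 (ENSG00000183770, chromosome 3, 138944224 to 138947140, minus strand) is a single-exon gene in the annotation. It had 5.59 and 6.25 FPKM in siOGT1 cells, 5.55 and 6.10 FPKM in siOGT2 cells and 5.36 and 5.32 FPKM in siNC cells. All 4 OGT siRNA libraries were above both siNC libraries, but the spread within the siRNA groups was wide and no call was made. The log2 fold change was 0.12 with siOGT1 (95% interval -0.01 to 0.26, adjusted p = 0.201) and 0.10 with siOGT2 (95% interval -0.03 to 0.24, adjusted p = 0.217). With siOGT1 it was 0.19 without siOGT1 replicate 1 and 0.06 without siOGT1 replicate 2, and with siOGT2 it was 0.16 without siOGT2 replicate 1 and 0.05 without siOGT2 replicate 2. FOXL2 passed in none of 17 alternatives for either siRNA.

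SOX9, the Sertoli cell factor that FOXL2 restrains in the mouse ovary, fell with both siRNAs. It averaged 4.21 ± 0.215 FPKM with siOGT1 and 5.62 ± 0.0637 FPKM with siOGT2, against 7.33 ± 0.32 FPKM with siNC (SD, n = 2 each). The log2 fold changes were -0.68 (adjusted p = 4.33e-05) and -0.33 (adjusted p = 0.00153), and the siRNAs differed by -0.34 (adjusted p = 0.00236). Among 13 tested of 26 gonad and sex determination genes, 1 rose and 3 fell with siOGT1, and 2 rose and 5 fell with siOGT2, with medians of -0.05 for both. The shares passing among all tested genes were 17.6% and 35.5%. MAP3K4, a kinase needed for testis formation in mice, rose to 7.17 FPKM with either siRNA, against 5.88 FPKM with siNC (log2 fold change 0.25 for each). KITLG, the granulosa ligand for the oocyte's KIT receptor, fell with siOGT2 to 17.1 FPKM, against 20.6 FPKM with siNC (-0.25, adjusted p = 0.00133). With siOGT1 it was 19.9 FPKM. The 4 calls with siOGT1 were 1 without siNC replicate 1, and 2 without siNC replicate 2 or siOGT1 replicate 2, and the call of MAP3K4 ended without siNC replicate 1 (adjusted p = 0.0585). The 7 calls with siOGT2 were 4 without siNC replicate 1. Under the trimmed mean scaling 1 rose and 5 fell with siOGT2.

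Of 23 gonadal genes that FOXL2, NR5A or GATA factors are known to act on, 8 could be tested, and 2 rose (STAR and INHBB) and 1 fell (SOX9) with each siRNA. The medians were 0.01 and 0.00, beside 0.03 and 0.04 for all genes, of which 17.6% and 35.5% passed. STAR, which brings cholesterol into mitochondria for steroid synthesis, averaged 2.04 ± 0.0578 FPKM with siOGT1 and 1.90 ± 0.37 FPKM with siOGT2, against 1.31 ± 0.117 FPKM with siNC. Its log2 fold changes were 0.39 (adjusted p = 0.0163) and 0.32 (adjusted p = 0.0219). INHBB, the beta B subunit of inhibin and activin, rose to 3.31 ± 0.0117 FPKM and 3.97 ± 0.0583 FPKM, against 2.35 ± 0.233 FPKM with siNC (0.37 and 0.57, adjusted p = 0.00382 and 0.000186). The STAR call with siOGT1 ended without siNC replicate 2 (adjusted p = 0.106), siOGT1 replicate 1 (0.0702) and siOGT1 replicate 2 (0.0527). With siOGT2 it ended without siNC replicate 2 (0.124) and siOGT2 replicate 2 (0.145). Under the trimmed mean scaling 2 rose and 2 fell with siOGT2.

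NR3C1 (ENSG00000113580, chromosome 5, 143277931 to 143435512, minus strand), the highest of the 9 genes, had 26.4 and 26.8 FPKM in siOGT1 cells, 25.1 and 24.5 FPKM in siOGT2 cells and 25.6 and 24.9 FPKM in siNC cells. The siOGT1 libraries were the highest, and siOGT2 overlapped siNC. The log2 fold change was 0.07 with siOGT1 (95% interval -0.00 to 0.15) and -0.02 with siOGT2 (95% interval -0.10 to 0.05), and neither passed. Between siOGT1 and siOGT2 it was 0.10 (95% interval 0.02 to 0.17, adjusted p = 0.0794), and 3 of 17 alternatives called it. In FPKM, NR3C1 was 19.1 and 19.9 times PGR in siOGT1 libraries, 15.2 and 17.5 times in siOGT2 libraries and 10.865 and 10.3 times in siNC libraries.

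Genes known to be induced by the glucocorticoid receptor fell more often than they rose. Of 24 such genes, 17 could be tested. With siOGT1, 8 fell and 1 (TSC22D3) rose, and with siOGT2, 12 fell and 1 (DDIT4) rose, while the median log2 fold changes were -0.17 and -0.30, beside 0.03 and 0.04 for all genes. The fallen share of the list, beside 8.10% and 13.4% lower among all tested genes, is a description, since no list test was made. The list was chosen with earlier results of these data known, so that share may not be independent of them. Several of these genes answer to other signals as well: DUSP1, ZFP36, NFKBIA and GADD45B are stress and immediate response genes, and PER1 and PER2 belong to the circadian clock.

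MT2A, a metal-binding metallothionein, averaged 56.0 ± 2.02 FPKM with siOGT1 and 60.5 ± 4.24 FPKM with siOGT2, against 89.7 ± 7.6 FPKM with siNC (SD, n = 2 each; log2 fold changes -0.67 and -0.56, adjusted p = 9.77e-05 and 0.000171). SGK1, a kinase that regulates ion transport, averaged 9.06 FPKM and 8.73 FPKM, against 11.1 FPKM with siNC (-0.27 and -0.32, adjusted p = 0.00317 and 0.000756). ERRFI1, an inhibitor of the EGF receptor, averaged 14.0 FPKM and 13.7 FPKM, against 17.2 FPKM with siNC (-0.28 and -0.31, adjusted p = 0.003 and 0.00106). For none of the 3 did siOGT1 against siOGT2 pass, with log2 fold changes of -0.11, 0.05 and 0.03.

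PER1 and DUSP1 fell further with siOGT2. PER1 averaged 8.38 FPKM with siOGT1 and 5.23 FPKM with siOGT2, against 10.1 FPKM with siNC, and the siRNAs differed by 0.59 (adjusted p = 0.000133). DUSP1, a phosphatase of MAP kinases, averaged 68.4 FPKM with siOGT1 and 54.9 FPKM with siOGT2, against 80.2 FPKM with siNC, with a difference between the siRNAs of 0.31 (adjusted p = 0.000813). Between siOGT1 and siOGT2, 6 genes of the list were higher and 1 was lower in siOGT1 cells. The count of 9 with siOGT1 was 5 without siNC replicate 2 or siOGT1 replicate 1, and 4 with no filter on low values. The PER1 call with siOGT1 (-0.24, adjusted p = 0.0169) ended without siNC replicate 2 (0.122) and siOGT1 replicate 1 (0.0893). Scaled by the trimmed mean, 8 fell and none rose with siOGT1.

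**Figure D3:**
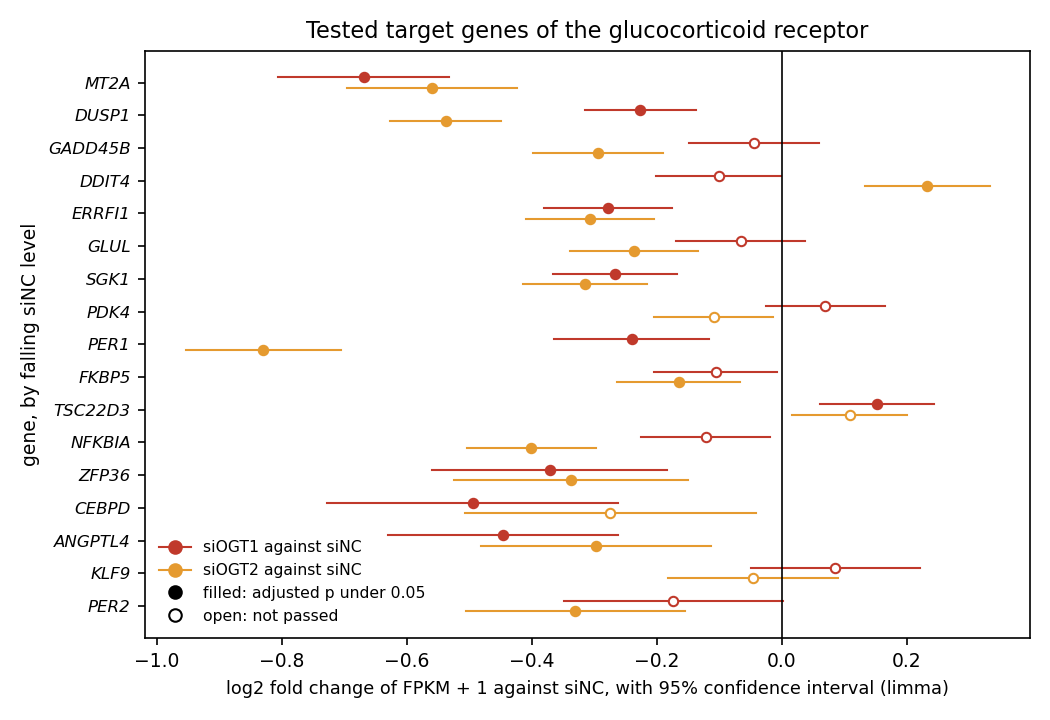
Log2 fold change of FPKM + 1 against siNC with its 95% confidence interval (limma) for the 17 tested glucocorticoid receptor targets, ordered by siNC level; filled points passed an adjusted p of 0.05. Filled points lie left of 0 for 8 genes with siOGT1 and 12 with siOGT2, and TSC22D3 (siOGT1) and DDIT4 (siOGT2) lie to the right.

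The 3 remaining genes had few reads. NR5A2 (ENSG00000116833, chromosome 1, 200027602 to 200177424, plus strand) had 36 and 49 reads in siOGT1 libraries, 40 and 39 in siOGT2 libraries and 37 and 25 in siNC libraries, or 0.259 and 0.303 FPKM, 0.293 and 0.309 FPKM, and 0.243 and 0.165 FPKM. In FPKM all 4 OGT siRNA libraries were above both siNC libraries, but limma voom on genes with at least 60 reads in all, a test added after the data were seen, made no call. Its log2 fold change was 0.49 with siOGT1 (95% interval -0.08 to 1.05, adjusted p = 0.239) and 0.58 with siOGT2 (95% interval 0.01 to 1.15, adjusted p = 0.114). These values rest on the siNC libraries, being 0.76 with siOGT1 and 0.85 with siOGT2 without siNC replicate 1, and 0.21 and 0.30 without siNC replicate 2. NR5A1 was 77.0 and 67.7 times NR5A2 in siOGT1 libraries, 63.5 and 64.5 times in siOGT2 libraries and 74.6 and 112 times in siNC libraries, in FPKM.

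WT1 (ENSG00000184937, chromosome 11, 32387775 to 32435630, minus strand) had 15 and 16 reads in siOGT1 libraries, 32 and 24 in siOGT2 libraries and 31 and 31 in siNC libraries. In FPKM these were 0.1002 and 0.0919 with siOGT1, 0.217 and 0.176 with siOGT2 and 0.189 and 0.190 with siNC, so the siOGT1 libraries were below all others. In the voom fit, where 19.8% of genes passed with siOGT1 against siNC, 33.4% with siOGT2 against siNC and 17.7% between the siRNAs, WT1 fell with siOGT1 against siNC (log2 fold change -0.96, SE 0.338, 95% interval -1.64 to -0.28, adjusted p = 0.038). It was also lower in siOGT1 than in siOGT2 cells (-1.02, adjusted p = 0.033), and siOGT2 against siNC was 0.05 (adjusted p = 0.912). Without 1 library the call against siNC ended for siOGT1 replicate 1 (adjusted p = 0.094), siOGT1 replicate 2 (0.183), siNC replicate 1 (0.122) and siNC replicate 2 (0.12). That between the siRNAs ended without siOGT1 replicate 1 (0.0841), siOGT1 replicate 2 (0.166), siOGT2 replicate 1 (0.198) and siOGT2 replicate 2 (0.0517). In the annotation used here some WT1 exons overlap WT1-AS on the opposite strand.

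ESR2 (ENSG00000140009, chromosome 14, 64084232 to 64338112, minus strand) had 29 and 30 reads in siOGT1 libraries, 18 and 16 in siOGT2 libraries and 25 and 12 in siNC libraries. In FPKM these were 0.132 and 0.117, 0.0832 and 0.0800, and 0.104 and 0.04998 in the same order. The siNC libraries differed from each other by more than either siRNA group did. The voom log2 fold change was 0.76 with siOGT1 (95% interval 0.06 to 1.46, adjusted p = 0.121) and 0.18 with siOGT2 (adjusted p = 0.764). Without siNC replicate 1 it was 1.28 with siOGT1 and 0.69 with siOGT2, and without siNC replicate 2 it was 0.25 and -0.34, so that the direction with siOGT2 turned. In the annotation used here its exons share bases with AL161756.1 on the same strand, so reads may be split between them.

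**Figure D4:**
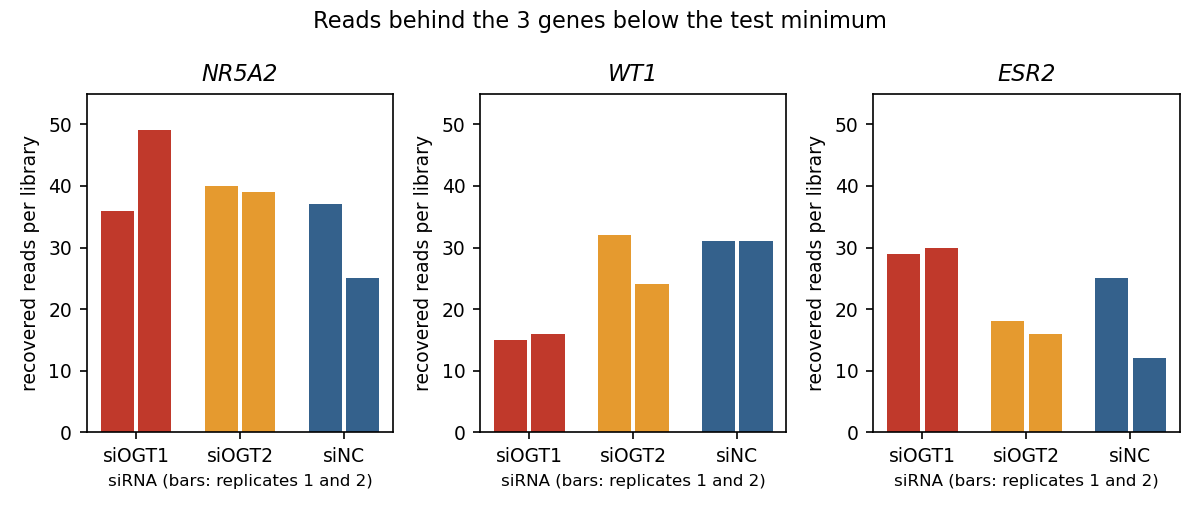
Recovered reads per library for NR5A2, WT1 and ESR2, with bars from 0 and replicates 1 and 2 side by side in each group. WT1 shows 15 and 16 reads with siOGT1 against 31 and 31 with siNC, and no library holds more than 49 reads of any of the 3 genes.

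Among the 48 nuclear receptor genes, 5 of which are described above, NR3C1 ranked 3 and NR5A1 ranked 5 by siNC level, PGR 18, NR5A2 33 and ESR2 40. Of the 26 tested, 4 rose and 4 fell with siOGT1 and 6 rose and 6 fell with siOGT2, with medians of 0.03 and 0.02. Beside these counts, 17.6% and 35.5% of all tested genes passed. PGR had the second largest fall of the family with siOGT1, after HNF4G, an orphan receptor that binds fatty acids. HNF4G averaged 0.603 FPKM with siOGT1, 1.10 FPKM with siOGT2 and 1.41 FPKM with siNC (log2 fold change -0.59, adjusted p = 0.000933, with siOGT1). With siOGT2, NR1D1 (-0.70) and NR4A2 (-0.50) fell further than PGR (-0.42). NR4A2 passed lower with both siRNAs (-0.35 and -0.50, adjusted p = 0.0267 and 0.00277). NR1D1, a heme-binding repressor of the clock and the most abundant receptor gene, averaged 100.005 FPKM with siOGT1 and 72.0 FPKM with siOGT2, against 117.5 FPKM with siNC (-0.23 and -0.70, adjusted p = 0.00241 and 1.57e-06). Its relative NR1D2 fell with siOGT2 to 80.6 FPKM, against 97.4 FPKM with siNC (-0.27, adjusted p = 0.000748). NR4A3, an orphan receptor induced at once by many signals, fell with siOGT2 as well, to 3.09 FPKM, against 4.24 FPKM with siNC (-0.36, adjusted p = 0.00158).

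The family counts moved with single libraries and with scaling. The 8 calls with siOGT1 were 3 without siNC replicate 1 or siOGT1 replicate 1, and 4 without siNC replicate 2 or siOGT1 replicate 2. The 12 calls with siOGT2 were 7 without siNC replicate 2 or siOGT2 replicate 2. Under the trimmed mean scaling 1 rose and 4 fell with siOGT1 and 3 rose and 6 fell with siOGT2, and under quantile normalization 2 rose and 4 fell with siOGT1.

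**Figure D5:**
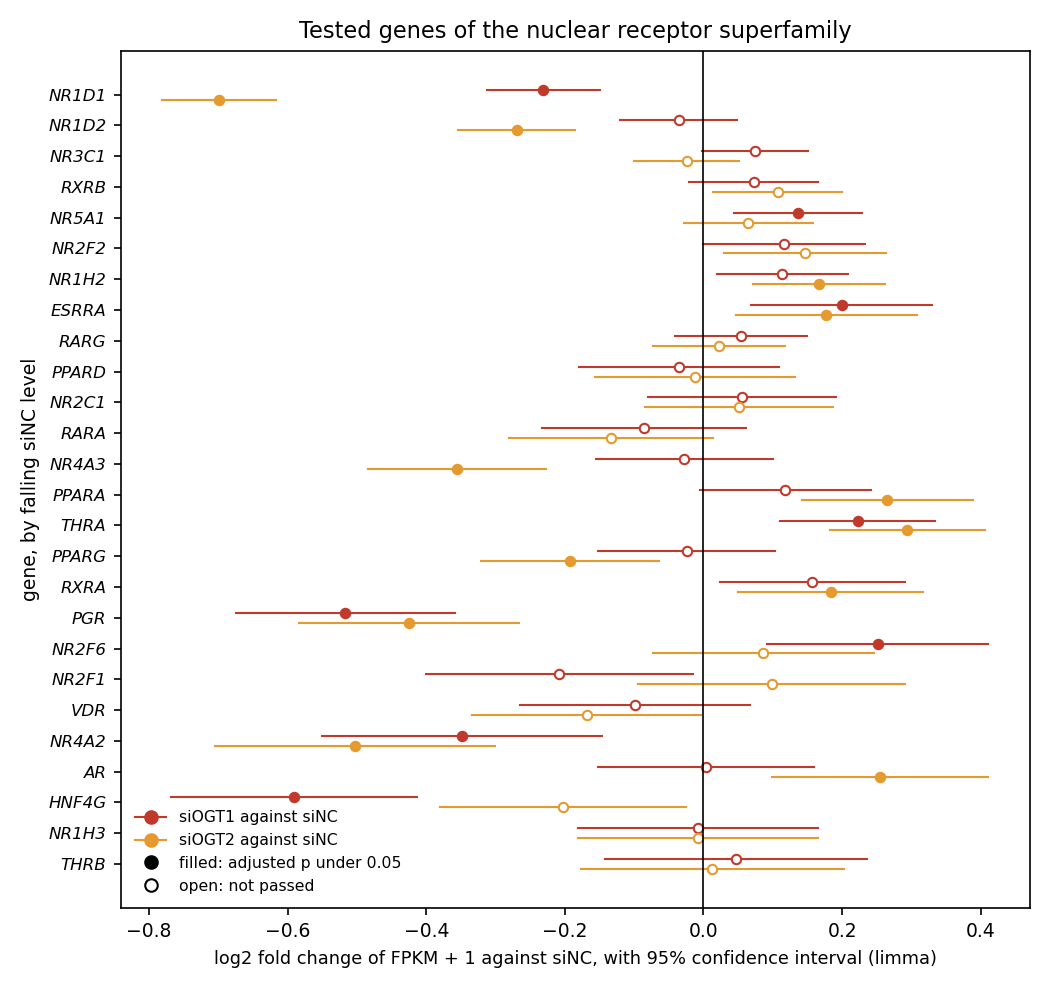
Log2 fold change of FPKM + 1 against siNC with its 95% confidence interval (limma) for the 26 tested nuclear receptor genes, ordered by siNC level; filled points passed an adjusted p of 0.05. PGR (-0.52 and -0.42), NR4A2 (-0.35 and -0.50) and NR1D1 (-0.23 and -0.70) lie left of 0 with both siRNAs, and NR3C1 and NR5A1 lie near 0.

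Partners of the steroid receptors were counted as well. Of 14 chaperone and cochaperone genes, all tested, 1 rose and 1 fell with siOGT1 and 6 rose and 2 fell with siOGT2, with medians of 0.04 and 0.06. Over all tested genes the passing shares were 17.6% and 35.5%. PTGES3, or p23, which stabilises hormone-free receptors on HSP90, averaged 61.0 FPKM with siOGT1, 71.2 FPKM with siOGT2 and 65.9 FPKM with siNC. Its log2 fold change was -0.11 with siOGT1 (adjusted p = 0.0395) and 0.11 with siOGT2 (adjusted p = 0.0246), and the difference between the siRNAs, -0.22, passed too (adjusted p = 0.0016). PTGES3 kept its call in 8 of 17 alternatives with siOGT1 and in 11 of 17 with siOGT2, and lost both without siNC replicate 1 (adjusted p = 0.178 and 0.083) or siNC replicate 2 (0.128 and 0.12). PGRMC2, a membrane heme protein named for progesterone binding, rose with both siRNAs, to 58.0 FPKM and 57.0 FPKM, against 51.1 FPKM with siNC (0.18 and 0.16, adjusted p = 0.00329 and 0.00414). The 8 chaperone calls with siOGT2 were 4 without siNC replicate 1 or siOGT2 replicate 2, and 3 without siNC replicate 2 or siOGT2 replicate 1. The 2 with siOGT1 were 4 without siOGT1 replicate 1 and 1 without any other library. Under quantile normalization 3 rose and none fell with siOGT1, and under the trimmed mean scaling 3 rose and 2 fell with siOGT2.

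Of 18 coregulator genes 17 were tested, and 1 rose and 1 fell with siOGT1 while 3 rose and 3 fell with siOGT2, with medians of 0.02 and -0.01. By comparison, 17.6% and 35.5% of all tested genes passed. PPARGC1A, the coactivator PGC-1 alpha, fell with siOGT2 to 1.81 FPKM, against 3.58 FPKM with siNC (-0.71, adjusted p = 4.97e-05). With siOGT1 it stood at 3.07 FPKM (-0.17, adjusted p = 0.098), and the siRNAs differed (0.54, adjusted p = 0.00052). The 2 calls with siOGT1 were 0 without siNC replicate 1, siNC replicate 2 or siOGT1 replicate 1, and 1 without siOGT1 replicate 2. The 6 with siOGT2 were 1 without siNC replicate 1 and 3 without siOGT2 replicate 1 or siOGT2 replicate 2. With the trimmed mean scaling 1 fell with siOGT1 and 4 fell with siOGT2, with no rises.

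The windows around the transcription starts of the 9 genes were searched for the motifs that these families bind. RefSeq promoter windows of 300 bases (GRCh38.p14, 250 bases before to 50 after each start) were used for 8 genes with 24 windows in all, and windows of GATA4 were not used here. The 5 motifs, read on both strands, were the NR5A half-site CAAGGTCA (in 1.28% of 35116 windows of all genes), the GATA motif AGATAA (10.3%), the forkhead motif TGTTTAC (3.42%), the steroid receptor half-site AGAACA (14.8%) and the estrogen response element, the half-sites GGTCA and TGACC set 3 bases apart (0.057%). Matches lay in windows of NR5A2, FOXL2, NR3C1, WT1 and ESR2, and all of them are shown to give the bases around each. Each stretch runs 5′ to 3′ on the gene's strand, with the match in capitals (TTATCT and GTAAACA are the GATA and forkhead motifs on the other strand).
NR5A2, GATA match, chr1:200027461-200027490, plus strand: atttctttgccaTTATCTggcaagaattct
NR5A2, second GATA match, chr1:200027478-200027507, plus strand: tggcaagaattcTTATCTcttttgctgtca
NR5A2, forkhead match, chr1:200042475-200042504, plus strand: tttcctttttgGTAAACAaatcagaggaaa
NR5A2, steroid half-site, chr1:200042396-200042425, plus strand: tttattttcaaaAGAACAagtcatcactgc
FOXL2, steroid half-site, chr3:138947120-138947149, minus strand: cccatacgaatcAGAACAgagcgaggctcc
NR3C1, GATA match, chr5:143403252-143403281, minus strand: aagctaagttgtTTATCTcggctgcggcgg
NR3C1, forkhead match, chr5:143403324-143403353, minus strand: aaaggggcggcTGTTTACttccttttttta
WT1, forkhead match, chr11:32400351-32400380, minus strand: tgtcagccctgccgtctagatgGTAAACAa
ESR2, steroid half-site, chr14:64283032-64283061, minus strand: cacgaatctttgAGAACAttataatgacct

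The first pair of NR5A2 stretches shares a window, with matches at positions -237 and -220 from the start, and the forkhead and steroid half-site matches lie in the window of its other start. The NR3C1 matches share 1 of that gene's 7 windows. None of the 5 motifs was found in the 3 windows of PGR, some of which overlap, the 1 of GATA6 or the 1 of NR5A1. Even the most frequent motif lay in only 14.8% of all windows, so windows without it are common. Matches were not compared with the test results. The search describes letters in these windows and was tied to no binding data.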

How the data were processed

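RNA of 6 KGN libraries was compared, 2 per group. Per the labels' protocols, TRIzol RNA went into NEBNext Ultra II libraries. Per the submitters' processing notes, cutadapt 1.15, HISAT2 and GRCh38 were used, while the counter, annotation and strandedness are not given. FPKM were computed by the authors and used as deposited. Ensembl IDs were matched to symbols for 20011 of 20036 genes, and positions and exon overlaps are those of GENCODE for GRCh38. This is not the annotation the authors counted on, as their lengths differ from it, most for WT1, ESR2, PGR and GATA6. Among the members only GATA4 had the same length in both. Reads were recovered from FPKM steps, with 99.96% of tested genes whole within 0.01 reads. Their number limits precision, from 12 reads (ESR2) upward.

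Genes with a mean of at least 1 FPKM were tested on log2(FPKM + 1), all 6 libraries in 1 limma model (limma 3.58.1, R 4.3.3, intensity trend, two-sided, 3 residual degrees of freedom), with Benjamini-Hochberg adjusted p under 0.05 as the call. The step was also run on simulated reads, with far fewer changed genes than were called here and changes in siOGT1 only. That run does not measure the error of the calls in these data. Alternatives covered pseudocount, filter, scaling, variance model, block, libraries and voom. Named from each list are up to 3 genes per siRNA with the smallest p among those called, and the 3 genes most like each called member. Members and lists were chosen with earlier results of these data known.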

Additional observations from a re-analysis of the deposited data

Results flagged for a closer look

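Of the 6 genes tested with limma on log2(FPKM + 1), GATA6 passed in the test of the difference between the siRNAs, with a log2 fold change of 0.25 for siOGT1 against siOGT2 (adjusted p = 0.0177), both siOGT1 libraries being above both siOGT2 libraries. In 3 of 16 alternatives it missed the threshold. Under limma voom on genes with at least 60 reads in all, NR3C1 (adjusted p = 0.03) and WT1 (adjusted p = 0.033) passed too. Groups of 2 libraries are too small for a check of single outlying libraries.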

How the results depend on the processing

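The log2 fold change of no tested member reversed a call. Genes passing numbered 1138 with siOGT1 against siNC (1857 in the reported fit) and 1017 between the siRNAs (1750) with no filter on low values. Leaving out 1 library gave 943 to 1738 genes with siOGT1, 2218 to 3744 with siOGT2 (3740) and 813 to 1532 between the siRNAs. Of the 9 genes, 2 passed with siOGT1, and 1 did with no filter, at a mean of at least 5 FPKM (where PGR, GATA4 and GATA6 are not tested), under quantile normalization, under the trimmed mean scaling and with no intensity trend. Under voom with at least 60 reads in all, WT1 passed with siOGT1 in addition to PGR and NR5A1. With siOGT2 (2 in the reported fit) the number passing was 1 with no filter and 0 at the 5 FPKM minimum. Between the siRNAs (1) it was 0 with no filter and 0 at the 5 FPKM minimum, 2 under the trimmed mean scaling and 2 under voom, and 3 under voom with at least 60 reads in all, which was added after the data were seen. Leave-outs gave 1 to 2, 1 to 2 and 0 to 1 members. The cause of these moves was not tested, except that the higher minimum tests fewer genes.

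Replicate numbers are shared between groups, but same-numbered libraries did not deviate together (r = -0.022 for siOGT1 with siNC, -0.026 for siOGT2 with siNC and 0.049 for siOGT1 with siOGT2, over 10547 genes). With the replicate block, 1773 genes passed with siOGT1 and 3636 with siOGT2, and 2, 2 and 1 members. Depth limits NR5A2, WT1 and ESR2, for which 12 to 49 reads per library were available.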
